A study of Mus musculus with 10 samples.

Results

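The citric acid cycle and the pyruvate oxidation step that feeds it were followed through 31 genes in heart muscle cells (cardiomyocytes) of Actn2 knockout and heterozygous mice. The genes were chosen by name, with earlier results of these data known, and all 31 had a row among the 23337 genes of the deposited count table. All 31 also passed the filter on low counts, which kept 11870 genes. Actn2 encodes alpha-actinin-2, a crosslinker of actin filaments at the sarcomere's Z-line. The knockout group held 5 samples of genotype Actn2-FF (both alleles floxed, that is, flanked by sites that Cre recombines) and the control group 5 samples of genotype Actn2-F+. Mice of both groups were injected on postnatal day 1 with AAV9-cTNT-Cre, a viral vector carrying Cre driven by the promoter of cardiac troponin T, a gene of heart muscle. The cells were collected on postnatal day 14. The controls therefore also carry Cre and 1 allele that it can recombine. Cells were sorted by fluorescence, and the marker of the sort, the strain and the sex are not given in the sources used here.

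The citric acid cycle is the mitochondrial ring of reactions that oxidises acetyl-CoA and passes its electrons to the respiratory chain. Pyruvate enters it through the pyruvate dehydrogenase complex, which kinases switch off and phosphatases switch on. The heart turns from glucose and lactate towards fatty acids after birth, and both fuels end in the same cycle.

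Total counts ran from 8086656 to 25237696 per sample, the highest in heterozygote 1 and the next, 16892340, in knockout 5. Actn2 itself averaged 3181 ± 358 CPM in heterozygotes, where CPM is the count scaled by the TMM-adjusted library total, and 1217 ± 55.3 CPM in knockouts (SD, n = 5 each), with no overlap. One sample stood apart in 12 interferon-response genes, whose summed level was 763 CPM in heterozygote 3 and 49.4 to 66.2 CPM in the other 9. Knockout 5 had the highest summed level of 4 atrial genes, 348 CPM against 4.13 to 81.8 CPM in the rest. A list of 10 cardiomyocyte genes, with none at 0, summed to 101857 to 125626 CPM in heterozygotes and 97353 to 123096 CPM in knockouts. Of these 10, Tnni3 was called lower, by a log2 fold change of -0.53 (adjusted p 0.00165), with no overlap. A list of 12 endothelial markers summed to 576 to 951 CPM in heterozygotes and 394 to 673 CPM in knockouts, where 2 of the 12 (Egfl7 and Cldn5) were called lower and none was at 0. A list of 7 immune markers summed to 11.8 to 65.2 CPM in heterozygotes and 7.91 to 10.5 CPM in knockouts, without overlap, and 1 of the 3 tested, Csf1r, was called lower. The sums of fibroblast and mural markers had overlapping ranges. The mural marker Cspg4 was called higher (log2 fold change 1.84, adjusted p 1.23e-06). The other mural markers, Rgs5, Pdgfrb, Kcnj8, Abcc9, Myh11 and Notch3, had log2 fold changes of -0.65 to -0.26, none called. The 4 globin genes listed were at 0, but each shares exon sequence with another of them, and shared reads are dropped in counting. Alas2, the other erythroid marker, was at 0.0976 to 1.15 CPM, too low to be tested. The part of immune and mural cells in the results below was not tested.

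Most genes of the cycle and of pyruvate oxidation fell in the knockout. All values are RNA levels, and protein, enzyme activity and flux are not part of these data. Of the 31, 22 were called lower and 1, the kinase gene Pdk3, higher (edgeR, quasi-likelihood; adjusted p under 0.05). Called genes made up 71% of the 31 on the lower side, against 8.64% of all tested genes, and 3.23% on the higher side, against 10.2%. With scaling by library totals alone, the shares of all tested genes were 6.4% lower and 14.2% higher, and 22 of the 31 were called lower. The median log2 fold change of the 31 was -0.52, and that of all tested genes 0.0023. The 2 groups did not overlap in 22 of the 31 genes, 21 with every knockout lower and 1 with every knockout higher. Over all tested genes 14.7% did not overlap, 6.32% lower and 8.41% higher. Summed over the 31 genes, the level was 34832, 32028, 31816, 29806 and 32447 CPM in heterozygotes 1 to 5. The same sum was 24181, 24085, 21846, 23076 and 21970 CPM in knockouts 1 to 5. The lowest heterozygote stood above the highest knockout. In bulk RNA, fewer cells of a type and less RNA per cell cannot be told apart.

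**Figure D1:**
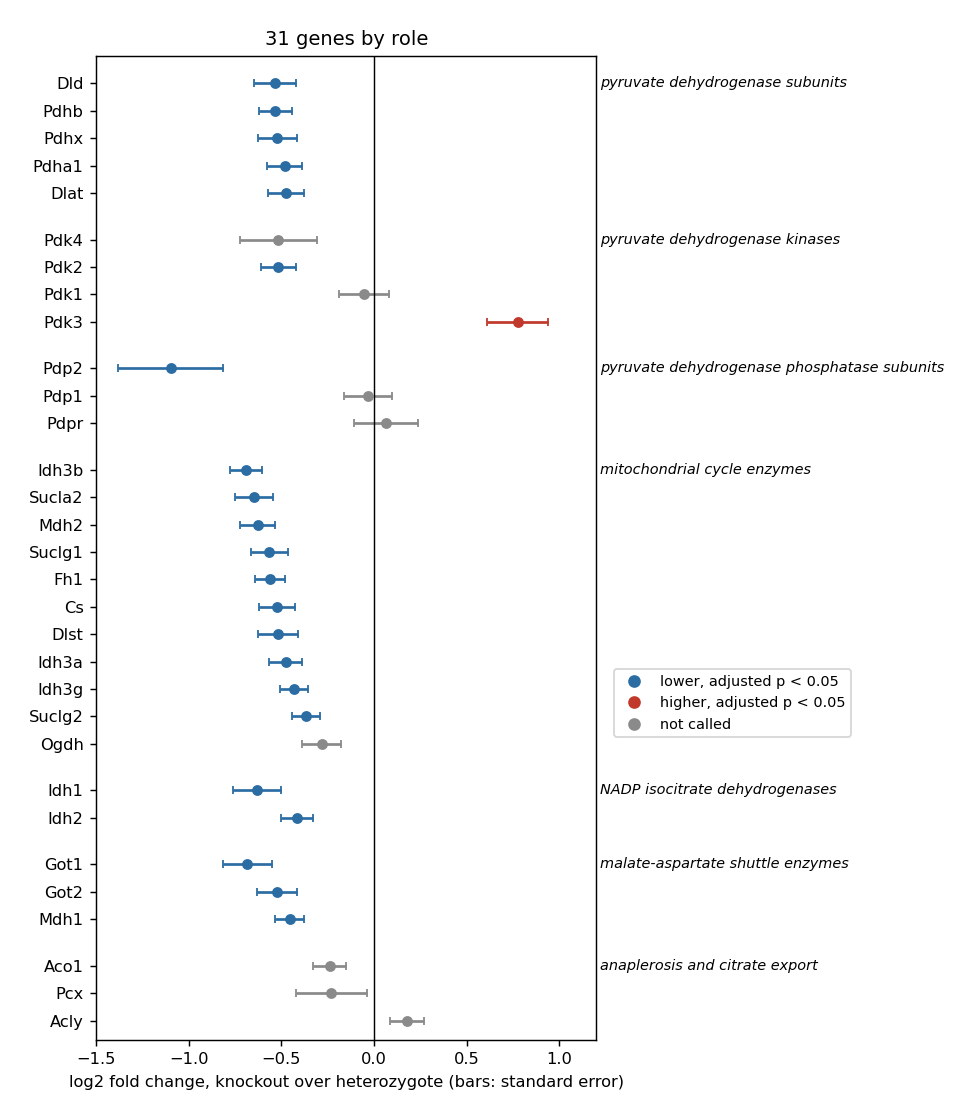
Log2 fold change (horizontal axis, knockout over heterozygote) of each of the 31 genes, grouped by role, with bars for the standard error over 5 against 5 samples. Blue points (22 genes) were called lower, the red point (Pdk3) higher, and the 8 grey points did not pass the threshold.

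Without heterozygote 3, heterozygote 1 or knockout 5, the 31 genes gave 22, 22 and 23 lower calls, with 1 higher each time. With the mean level of the endothelial markers as a covariate, calls over all genes fell from 2241 to 1011. In that fit 20 of the 31 genes were still called lower, against 4.15% of all tested genes, and Dld (adjusted p 0.0575) and Pdp2 (0.102) were lost. The log2 fold changes of Dld and Pdp2 there were -0.51 and -1.03, against -0.53 and -1.10 without the covariate. The median of the 31 was -0.51 in that fit and -0.52 in the main one. The covariate itself was 5.31 to 6.14 log2 CPM in heterozygotes and 4.79 to 5.51 in knockouts, so it partly follows genotype.

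Promoter sequence was examined because so many of these genes moved together. RefSeq windows (build GRCm38.p6, 250 bases before to 50 after each annotated start) matched 29 of the 31 by symbol. On either strand, the windows held 0 matches to TNAAGGTCA (the element of oestrogen-related receptors), to the direct repeat with 1 spacer base that nuclear receptors bind, or to the palindrome of nuclear respiratory factor 1. Over all 27025 genes with a window, 1.43%, 0.0481% and 1.07% held them. For each motif the 95% interval of the share in the 29 was 0% to 11.7%. The 0 matches therefore cannot tell these promoters from all genes. Shorter or looser forms were chosen after that result. CCGGAAG, the core bound by ETS factors, was in 10.3% (3 of 29: Idh3b, Idh3g and Dlst) against 9.93%. The palindrome with 1 base left free was in 6.9% (Dld and Sucla2) against 5.19%, and AAGGTCA, which lies within the first motif, in 6.9% (Ogdh and Got1) against 5.38%. The 95% intervals in the 29 were 3.58% to 26.4% for CCGGAAG and 1.91% to 22% for each of the others. So few matches cannot tell these promoters from all genes either. The 250 bases before the start had a median GC content of 61.6% in the 29 genes and 52% in all 27025 genes. The 29 all passed the filter on low counts, whereas the 27025 include genes that did not. A comparison with tested genes alone was not made. Stretches of 4 promoters are shown, a pair with a match (in capitals) and the 2 kinase genes that were called in opposite directions, which hold none of these motifs. Each is given 5′ to 3′ on the strand of its gene, which is the minus strand for all 4. They lie at chrX:73786898-73787017 (Idh3g), chr19:43524736-43524855 (Got1), chr11:95041372-95041491 (Pdk2) and chrX:93832211-93832330 (Pdk3).
Idh3g: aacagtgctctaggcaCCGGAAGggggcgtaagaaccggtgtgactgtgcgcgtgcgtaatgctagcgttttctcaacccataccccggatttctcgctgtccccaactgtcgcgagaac
Got1: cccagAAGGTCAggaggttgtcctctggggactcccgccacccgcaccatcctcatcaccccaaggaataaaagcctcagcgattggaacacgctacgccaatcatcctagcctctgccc
Pdk2: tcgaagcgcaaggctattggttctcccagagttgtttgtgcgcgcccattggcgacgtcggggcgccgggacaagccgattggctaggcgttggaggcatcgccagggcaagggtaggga
Pdk3: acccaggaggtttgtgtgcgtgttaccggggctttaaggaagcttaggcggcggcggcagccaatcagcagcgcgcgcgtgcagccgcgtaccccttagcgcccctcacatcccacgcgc

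Every gene for a subunit of the pyruvate dehydrogenase complex fell, by similar amounts. Pdha1 and Pdhb encode the alpha and beta chains of its first enzyme, Dlat the second enzyme, Dld the third, which other dehydrogenase complexes share, and Pdhx the protein that binds Dld into the complex. Pdhb (chromosome 14, 8165991 to 8172992, build mm10 here and below) was at 1259, 1026, 1151, 1177 and 1132 CPM in heterozygotes 1 to 5. In knockouts 1 to 5 it was at 823, 864, 739, 835 and 711 CPM, all below the heterozygotes. The log2 difference was -0.53 (SE 0.0871, adjusted p 0.000763), which left 69.1% of the heterozygote level. The log2 fold changes of the other subunits were -0.53 for Dld, -0.52 for Pdhx, -0.48 for Pdha1 and -0.48 for Dlat, with adjusted p-values of 0.00227 to 0.00453. None of the 5 overlapped between the groups. Pdha1 shares exon sequence with Map3k15, so reads in that stretch are lost to both. Per kilobase of exon, the heterozygote level was 774 CPM for Pdhb, 487 for Pdha1, 329 for Dld, 235 for Dlat and 117 for Pdhx, and the knockout level kept this order.

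Of the 11 enzyme genes of the cycle in mitochondria, 10 were called lower, and all 11 had log2 fold changes below 0. Citrate synthase, encoded by Cs (chromosome 10, 128337832 to 128362479), joins acetyl-CoA to oxaloacetate. Its counts were 2696, 2553, 2344, 2101 and 2345 CPM in heterozygotes 1 to 5 and 1832, 1888, 1516, 1624 and 1503 CPM in knockouts 1 to 5. The groups were apart, with a log2 fold change of -0.53 (SE 0.0960, adjusted p 0.00166).

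The genes for the 3 chains of NAD-dependent isocitrate dehydrogenase, a rate-setting enzyme of the cycle, all fell. Idh3b, for a regulatory chain (chromosome 2, 130279309 to 130284451), had the lowest adjusted p of the 31 genes. It was at 978, 1038, 879, 892 and 928 CPM in heterozygotes 1 to 5 and at 651, 571, 574, 595 and 528 CPM in knockouts 1 to 5, again without overlap. The log2 fold change was -0.69 (SE 0.0850, adjusted p 7.36e-05), so that 61.9% remained. Idh3b shares exon sequence with Nop56. Idh3a, the catalytic chain, and Idh3g, the other regulatory chain, fell by 0.48 and 0.43 on the log2 scale (adjusted p 0.00197 and 0.00105). Per kilobase, the 3 chains stood at 620 to 679 CPM in heterozygotes, and at 448 (Idh3a), 384 (Idh3b) and 503 CPM (Idh3g) in knockouts. Whether the chains differ in their change was not tested.

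The 1 cycle gene that was not called belongs to the next complex, oxoglutarate dehydrogenase. Ogdh, its first enzyme (chromosome 11, 6291597 to 6359094), was at 3856, 3094, 3520, 2859 and 3124 CPM in heterozygotes 1 to 5 and at 2935, 3147, 2563, 2496 and 2382 CPM in knockouts 1 to 5. The groups overlapped, since knockout 2 exceeded heterozygotes 2, 4 and 5, and the log2 fold change of -0.28 (SE 0.105) had an adjusted p of 0.0746. The gene passed with DESeq2 (0.0453), with limma's voom (0.0280), without heterozygote 4 (0.0436) and without knockout 2 (0.0426). Dlst, the second enzyme of that complex, fell by 0.52 (adjusted p 0.00417). Whether Ogdh differs in its change from the other enzymes was not tested.

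Succinyl-CoA ligase makes ATP or GTP according to its beta chain. The ATP-forming chain, Sucla2 (chromosome 14, 73552786 to 73596142), was at 1542, 1129, 1238, 1417 and 1534 CPM in heterozygotes 1 to 5 and at 914, 908, 855, 925 and 771 CPM in knockouts 1 to 5. All knockouts lay lower, with a log2 fold change of -0.65 (SE 0.102, adjusted p 0.000532). The GTP-forming chain, Suclg2 (chromosome 6, 95474134 to 95718837), fell too. It averaged 119 ± 6.43 CPM in heterozygotes and 92.3 ± 2.92 CPM in knockouts (SD, n = 5 each), a difference of -0.37 on the log2 scale (SE 0.0780, adjusted p 0.00455). Suclg1, the alpha chain of both forms, fell by 0.57 (adjusted p 0.00132). Of the reads per length of the 2 beta chains, Sucla2 took 92.8%, 91.7%, 92.0%, 92.8% and 93.2% in heterozygotes 1 to 5. It took 91.6%, 91.6%, 91.1%, 91.2% and 89.9% in knockouts 1 to 5. Each knockout share was below each heterozygote share, by 1.43 percentage points on average. The gene of the ATP-forming chain kept the larger share of these reads in every sample.

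Genes for the last steps of the ring also fell. Fh1, which encodes fumarase (chromosome 1, 175601378 to 175625635), averaged 838 ± 57.8 CPM in heterozygotes and 568 ± 25.9 CPM in knockouts (SD, n = 5 each), a difference of -0.56 on the log2 scale (SE 0.0797, adjusted p 0.000239). Mdh2, the mitochondrial malate dehydrogenase that regenerates oxaloacetate (chromosome 5, 135778649 to 135790386), was at 2695, 3112, 2487, 2323 and 2481 CPM in heterozygotes 1 to 5. In knockouts 1 to 5 it was at 1918, 1699, 1606, 1697 and 1552 CPM, all below. Its log2 fold change was -0.63 (SE 0.0951, adjusted p 0.000407).

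**Figure D2:**
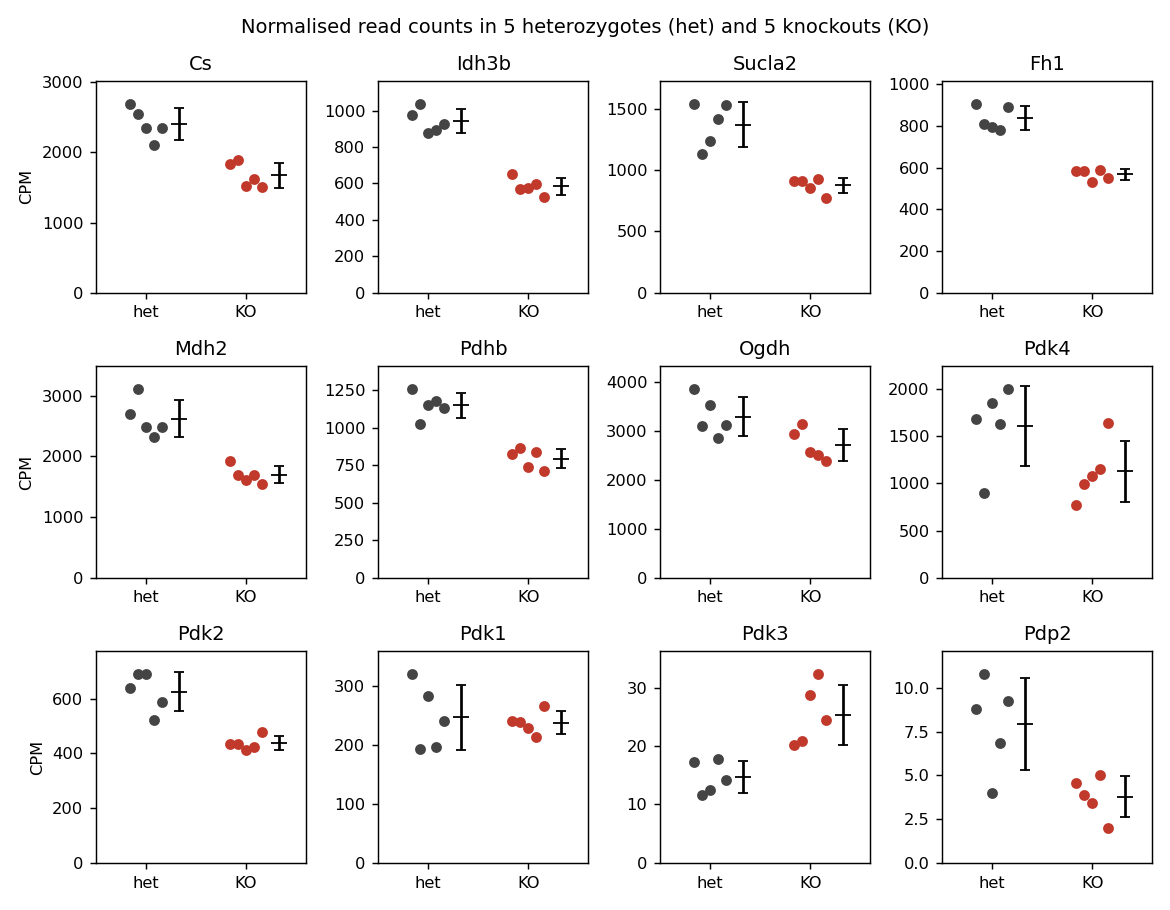
Normalised read counts (vertical axes, CPM, each starting at 0) of 12 of the 31 genes in each sample, with the mean and SD of each group of 5 beside the points. Cs, Idh3b, Sucla2, Fh1, Mdh2, Pdhb and Pdk2 were lower in every knockout than in any heterozygote, Pdk3 was higher, and the groups overlapped for Ogdh, Pdk4, Pdk1 and Pdp2.

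Genes for enzymes that work beside the cycle in both compartments fell as well. The malate-aspartate shuttle, which carries reducing power from the cytosol into mitochondria, uses Mdh1 and Got1 in the cytosol and Mdh2 and Got2 inside. Mdh1 (chromosome 11, 21556692 to 21571934) had the highest level per kilobase of the 31 genes in both groups, 2280 and 1662 CPM. Its counts were 4663, 4516, 4284, 4331 and 4526 CPM in heterozygotes 1 to 5 and 3585, 3210, 3230, 3340 and 2908 CPM in knockouts 1 to 5. These do not overlap, and the log2 fold change was -0.46 (SE 0.0770, adjusted p 0.000966). Got1 and Got2, the cytosolic and mitochondrial aspartate aminotransferases, fell by 0.68 (SE 0.131, adjusted p 0.00235) and 0.52 (SE 0.106, adjusted p 0.00341).

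The NADP-dependent isocitrate dehydrogenases supply NADPH. Idh2 in mitochondria (chromosome 7, 80094847 to 80115350) averaged 2908 ± 164 CPM in heterozygotes and 2176 ± 210 CPM in knockouts (SD, n = 5 each), a difference of -0.42 on the log2 scale (SE 0.0860, adjusted p 0.00368). Idh1 in the cytosol averaged 71.9 ± 14.1 and 46.6 ± 4.83 CPM, a difference of -0.63 (SE 0.129, adjusted p 0.00368). Idh2 made up 98.3% ± 0.301 of the reads per length of the pair in heterozygotes and 98.5% ± 0.229 in knockouts.

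The genes for the kinases that inactivate pyruvate dehydrogenase did not move as a block. Pdk2 (chromosome 11, 95026258 to 95041371) was at 639, 689, 690, 522 and 587 CPM in heterozygotes 1 to 5 and at 435, 435, 413, 424 and 479 CPM in knockouts 1 to 5. Every knockout was lower, and the log2 fold change was -0.52 (SE 0.0941, adjusted p 0.00164). Pdk3 (chromosome X, 93764616 to 93832095) went the other way, from 17.3, 11.7, 12.4, 17.8 and 14.2 CPM in heterozygotes 1 to 5 to 20.1, 20.9, 28.7, 32.3 and 24.4 CPM in knockouts 1 to 5. All knockouts were above all heterozygotes, with a log2 fold change of 0.77 (SE 0.164, adjusted p 0.00444), or 171% of the heterozygote level. It remained the least abundant kinase gene per kilobase in both groups, at 7.34 and 12.6 CPM.

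Pdk4 is the kinase gene known for its rise with fasting and fatty acid use, and it was the most abundant of the 4 per kilobase, at 466 CPM in heterozygotes and 326 CPM in knockouts. Pdk4 (chromosome 6, 5483351 to 5496278) was at 1676, 900, 1847, 1629 and 1998 CPM in heterozygotes 1 to 5 and at 768, 993, 1073, 1154 and 1639 CPM in knockouts 1 to 5. Heterozygote 2 lay among the knockouts and knockout 5 among the heterozygotes. The log2 fold change of -0.52 (SE 0.209) did not pass, at an adjusted p of 0.101. It passed in 5 of the 20 alternative fits, among them those without heterozygote 2 (-0.67, adjusted p 0.0146), without knockout 5 (-0.69, 0.0282), with DESeq2 (0.0446) and with limma's voom (0.0149). Pdk1, a target of the hypoxia response, was at 247 ± 55.1 and 238 ± 19.2 CPM (SD, n = 5; log2 fold change -0.05, adjusted p 0.827), and its sign turned with scaling by library totals (0.03) and without heterozygote 1 (0.06).

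**Figure D3:**
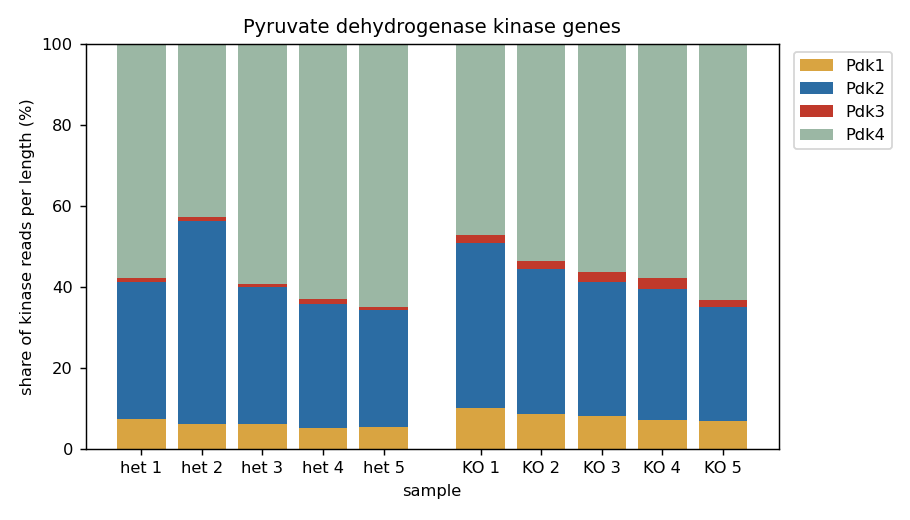
Share of each kinase gene (vertical axis, percent) in the sum of Pdk1 to Pdk4 reads divided by gene length, with 1 bar per sample. Pdk4 (top segment) was the largest share except in heterozygote 2, where Pdk2 was, and the thin Pdk3 segment was wider in every knockout than in any heterozygote.

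By reads per length, Pdk4 made up 57.6% ± 8.70 of the 4 kinase genes in heterozygotes and 55.6% ± 5.89 in knockouts (SD, n = 5). The difference, -1.98 percentage points, was within the spread and turned to 0.13 without knockout 1. Pdk3 made up 0.932% ± 0.195 and 2.22% ± 0.474, with no overlap. In heterozygote 2 Pdk2 had the larger share and Pdk4 42.8%. Kinase reads per kilobase summed to 609 to 901 CPM in heterozygotes and 472 to 751 CPM in knockouts, overlapping ranges.

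The genes for the phosphatases that reactivate the complex had lower levels. Per kilobase, Pdp1 and Pdp2 together stood at 19.7 to 29.7 CPM in heterozygotes and 18.7 to 24.3 CPM in knockouts. Pdp1, the main catalytic subunit in muscle, was at 92.8 ± 19.2 CPM in heterozygotes and 90.8 ± 8.30 CPM in knockouts (SD, n = 5; log2 fold change -0.03, adjusted p 0.890), and its sign turned with scaling by library totals (0.05). Pdp2, the other catalytic subunit (chromosome 8, 104591468 to 104596849), was at 8.82, 10.8, 3.97, 6.88 and 9.25 CPM in heterozygotes 1 to 5 and at 4.58, 3.90, 3.41, 5.03 and 1.98 CPM in knockouts 1 to 5. It was called lower (log2 fold change -1.10, SE 0.285, adjusted p 0.0148) with overlapping groups, since heterozygote 3 lay among the knockouts. Pdp2 had the lowest level of the 31 genes, with as few as 31 reads in a sample. The regulatory subunit gene Pdpr, which shares exon sequence with 9430091E24Rik, was at 44.9 ± 10.8 and 47.1 ± 11.3 CPM (log2 fold change 0.06, adjusted p 0.842). Its sign turned with limma's voom (-0.07) and with the endothelial covariate (-0.09).

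Pcx, Acly and Aco1, the 3 genes grouped under filling of the cycle and citrate export, did not pass the test. Pcx encodes pyruvate carboxylase, which makes oxaloacetate from pyruvate, and was at 12.1 ± 2.41 and 10.3 ± 2.39 CPM (SD, n = 5; log2 fold change -0.23, adjusted p 0.440). Acly encodes ATP citrate lyase, which turns exported citrate into acetyl-CoA for lipid synthesis. It was at 61.2 ± 6.18 and 69.2 ± 4.62 CPM (log2 fold change 0.18, SE 0.0932, adjusted p 0.205). Aco1, the cytosolic aconitase that doubles as an iron sensor, was at 86.2 ± 6.03 and 73.0 ± 6.24 CPM (log2 fold change -0.24, SE 0.0896, adjusted p 0.0773). Aco1 passed with DESeq2 (0.0416) and with limma's voom (0.0456).

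**Figure D4:**
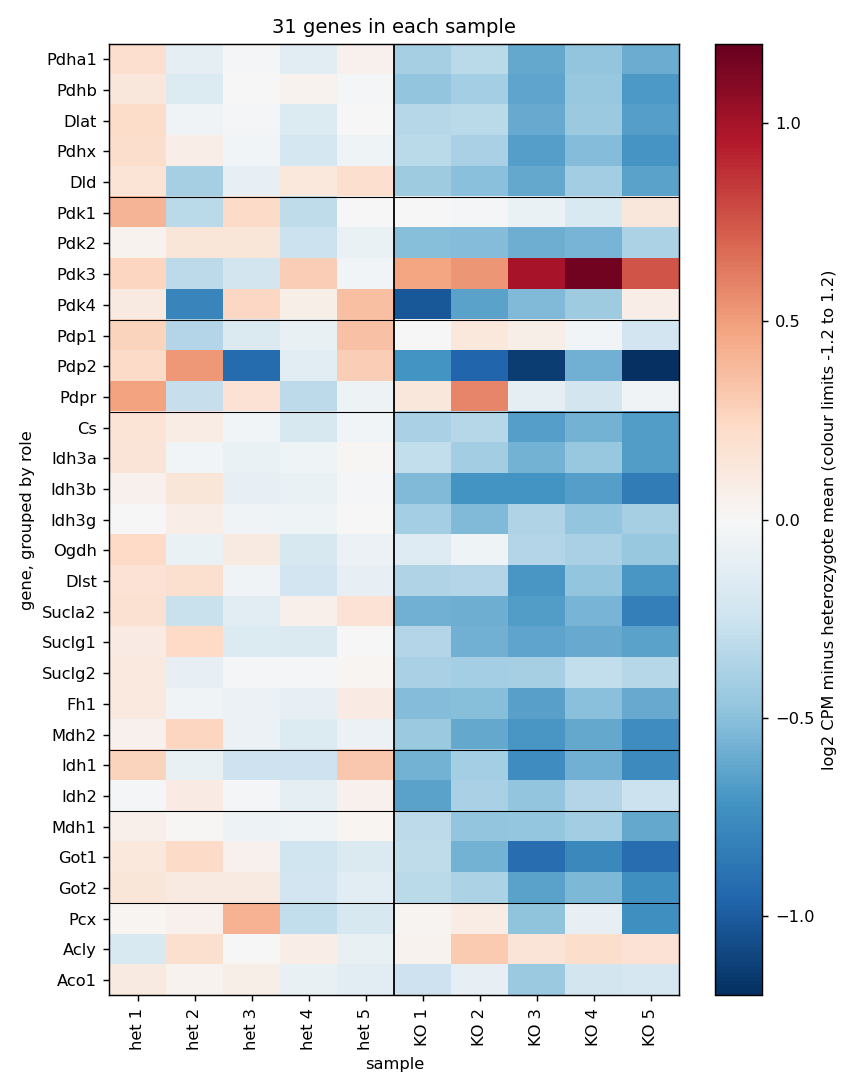
Each of the 31 genes (rows, grouped by role) in each sample (columns), as log2 CPM minus the mean of the 5 heterozygotes. Blue is below that mean and red above, with colours limited at -1.2 and 1.2, and Pdp2 in knockout 5 lies past the lower limit.

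Other genes of the pathway, 42 listed by their place in the pathway, also fell in part. Of the 40 that were tested, 19 (47.5%) were called lower and 1 (2.5%) higher, with a median log2 fold change of -0.35. With the endothelial covariate, 14 were lower and 0 higher. Within the cycle itself, the 4 succinate dehydrogenase subunits Sdha, Sdhb, Sdhc and Sdhd fell by 0.42, 0.60, 0.41 and 0.40, with adjusted p-values of 0.00140 to 0.0121. None of the 4 assembly factors of that enzyme passed.

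The genes for both subunits of the mitochondrial pyruvate carrier fell. Mpc2, listed under its older symbol Brp44, averaged 575 ± 39.9 CPM in heterozygotes and 362 ± 45.3 CPM in knockouts (SD, n = 5 each; log2 difference -0.67, SE 0.0989, adjusted p 0.000349), and Mpc1, listed as Brp44l, fell by 0.43 (adjusted p 0.0129). Ldhb, the lactate dehydrogenase chain of heart, fell by 0.48 (adjusted p 0.00252), while Ldha was at 1940 ± 169 and 1680 ± 276 CPM (adjusted p 0.218). The 1 gene that rose was Slc16a3, a lactate exporter, from 1.6, 2.7, 2.31, 2.89 and 2.26 CPM in heterozygotes 1 to 5 to 8.23, 4.66, 4.88, 3.59 and 4.36 CPM in knockouts 1 to 5. The groups did not overlap (log2 difference 1.15, SE 0.265, adjusted p 0.00759), and the call was lost with the endothelial covariate.

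The largest fall on that list was that of Acss1, which makes acetyl-CoA from acetate in mitochondria. Acss1, which shares exon sequence with E130215H24Rik, averaged 542 ± 68.8 CPM in heterozygotes and 266 ± 40.9 CPM in knockouts (SD, n = 5 each), a log2 difference of -1.03 (SE 0.121, adjusted p 4.88e-05). Fahd1, an oxaloacetate decarboxylase, fell by 0.75 (adjusted p 4.63e-05), and Ogdhl, a relative of Ogdh, by 0.94 (adjusted p 0.0212). For Ogdhl the groups overlapped, at 13.2 to 35.7 CPM in heterozygotes and 9.05 to 16.6 CPM in knockouts. Of 6 mitochondrial carriers, 3 were called lower. Slc25a10 and Slc25a11, for dicarboxylates, and Slc25a22, for glutamate, fell by 0.70, 0.66 and 0.69 (adjusted p-values 0.00217, 0.000757 and 0.0018). The aspartate-glutamate carriers Slc25a12 and Slc25a13 had log2 fold changes of -0.34 and -0.02 (adjusted p 0.0747 and 0.941), and the citrate carrier Slc25a1 one of 0.44 (adjusted p 0.155). Of 6 genes that attach lipoyl groups or build iron-sulphur clusters, 3 were called lower: Lias, Bola3 and Glrx5 fell by 0.37, 0.47 and 0.43 (adjusted p 0.0134 to 0.0207). In each of these 3 the groups overlapped. Me1, the cytosolic malic enzyme, which shares exon sequence with A330041J22Rik, fell by 0.55 (adjusted p 0.00117).

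Within a group, samples differed least in Idh3g and Suclg2, with SDs of 0.0588 and 0.0633 on the log2 scale, and most in Pdp2 (0.536) and Pdk4 (0.427). After the group means were taken out, pairs of the 31 genes had a median Pearson r of 0.32 over the 10 samples (465 pairs), as a description of genes that share libraries and depth. The closest pair was Pdhx with Cs (r = 0.975), and the most opposed was Pdk4 with Mdh2 (r = -0.86). The genes whose log2 CPM was most like that of Pdk4 over the 10 samples, among 8369 others with a mean of at least 10 CPM, were Abhd13, Gpcpd1, Appl2, Nnt and Nfia (r = 0.911 to 0.953).

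Sex was not given in the labels. Counts of 4 Y-linked genes were 0 or 1 in heterozygotes 3 and 5 and knockout 5, and 1425 or more in the other samples. Of the 31 genes, Pdha1, Idh3g and Pdk3 lie on the X chromosome. With Y-linked expression as a covariate, the 31 genes again gave 22 lower calls and 1 higher. Pdk4 was at 1847 and 1998 CPM in heterozygotes 3 and 5 and at 1639 CPM in knockout 5, the highest values of each group. With that covariate the log2 fold change of Pdk4 was -0.42 (adjusted p 0.106), against -0.52 without it. Whether Pdk4 differs by sex was not tested.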

How the data were processed

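Sequencing covered polyadenylated RNA from 10 samples of sorted cardiomyocytes. Per the labels' protocols, cDNA was made from 10 ng of total RNA with 8 PCR cycles (SMART-Seq), and Nextera XT libraries took 500 pg each. The deposited values are raw read counts per gene, made by the authors with featureCounts 1.5.1 and no option but 4 threads, against a UCSC mm10 annotation, per the file headers. The submitters' processing notes name STAR 2.5.3a and Subread 1.5.2. Under those defaults strand is ignored, and reads at several places or genes are dropped, so genes with near-identical copies are undercounted. The 4 columns of counts that match no sample here were not used.

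Genes were filtered with filterByExpr (minimum count 10, minimum total 15) and compared over all 10 samples with edgeR 4.0.16 (R 4.3.3; TMM, quasi-likelihood F test, no covariate). P-values were adjusted by Benjamini-Hochberg over 11870 genes; calls needed under 0.05. Standard errors were taken as the size of the log2 fold change divided by the square root of F. CPM are counts over TMM-scaled totals, and log2 CPM has a prior count of 1. Levels per kilobase divide CPM by the exon length in the table. Chi-square values between replicates, 10.8 to 37.5 per degree of freedom over 20 pairs, showed no library deposited more than once. The labels do not say that the samples are separate animals, so p-values measure the spread between these samples. The procedure was tested on simulated data. Every one of the 31 genes is reported, with values in each sample for those the results turn on, and of the other pathway genes those called, apart from some that are not reported here. The genes and lists were chosen with earlier results of these data known.

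Alternatives were RLE, upper-quartile and library-total scaling, no filter, a mean of 5 CPM, DESeq2 1.42.0, limma 3.58.1 (voom with sample weights), the replicate number as a block, endothelial and Y-linked covariates, and leaving out each sample. For shares and motifs, undivided counts and a window of 250 bases before the start were used.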

Additional observations from a re-analysis of the deposited data

Results flagged for a closer look

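In 2 of 66 groups of 5 values (a gene or a share within a genotype), a sample's gap to its nearest neighbour exceeded 0.71 of the group's range, and about 1 in 20 groups does so by chance. Pdk4 was at 9.81 log2 CPM in heterozygote 2, against 10.67 in the next lowest heterozygote (gap 0.744 of the range). Knockout 1 had 9.44 log2 CPM of Suclg1, where the next highest knockout had 9.22 (gap 0.753). Suclg1 was called lower in each of the 20 alternative fits, and the cause of either value was not tested.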

How the results depend on the processing

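Of the 23 called genes, 21 kept call and direction in all 20 alternative fits, and Dld and Pdp2 lost the call with the endothelial covariate. Lower calls among the 31 genes numbered 20 to 25, with 1 higher throughout, and their median log2 fold change ran from -0.54 to -0.43. Leaving out single samples gave 22 to 23 lower calls, 1699 to 2258 calls over all genes, and 18 to 22 lower and 1 to 2 higher calls in the other pathway genes. Calls over all genes numbered 1011 with the endothelial covariate. Higher calls in the other pathway genes were 2 with library totals and with voom, and 0 with a mean of 5 CPM, which drops genes, and with the endothelial covariate. The cause of the other changes was not tested.

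Of the 8 genes not called, Pdk4, Ogdh and Aco1 passed in some fits. With library totals the log2 fold changes of Pdk1 and Pdp1 turned to 0.0296 and 0.0451. That of Pdpr turned to -0.0734 with voom and -0.0910 with the endothelial covariate. Leaving out single samples turned these signs too: Pdk1 ran from -0.128 to 0.0594 (above 0 without heterozygote 1), Pdp1 from -0.112 to 0.0603 (above 0 without heterozygote 1, heterozygote 5 or knockout 5) and Pdpr from -0.0902 to 0.214 (below 0 without heterozygote 4 or knockout 2). The Pdk4 share difference ran from -5.67 to 0.13 percentage points, and that of Sucla2 from -1.64 to -1.14, when single samples were left out. In the 250 bases before the start alone, CCGGAAG was in 3.45% of the 29 promoters (1 gene) against 7.83% of all genes, and the other 2 looser motifs in 3.45% each against 4.23% and 4.7%. Library totals moved the median log2 fold change of all genes to 0.084.

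With the replicate number as a block, 2182 genes were called, 23 of the 31 lower, and Pdk4 passed (-0.51, adjusted p 0.0370). The numbers are not known to pair the samples: deviations of same-numbered samples correlated at -0.0604 to 0.185, and 2 of 5 knockouts correlated best with their own number. Pdp2, Pdk3 and Pcx have the fewest reads, which limits their precision.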
